A study of Mus musculus with 18 samples.

Results

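The genes described here are 9 genes of the nuclear lamina, of lamina-linked chromatin and of the senescence literature: Lmnb1, Lmnb2, Lmna, Lbr, Emd, Tmpo, Hmgb1, Hmgb2 and Glb1. They were taken by symbol from the deposited count files, and all 9 were found among the 22609 gene symbols listed. Wild-type mice of the inbred strain C57BL/6J were given a diet at 4 weeks of age and kept on it for 21 days, either a ketogenic diet (fat 90%, protein 9.7%, carbohydrate 0.3%) or standard chow. The organs taken were the heart, the kidney and the liver. RNA was sequenced from 3 libraries for each organ and diet, called biological replicates in the labels, so there were 18 libraries in 6 groups. The series' title names senescence in several organs, and the question put here is how these genes differed between the diets and whether the level of Lmnb1 went with that of the cell cycle genes Mki67 and Top2a.

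The lamina is a mesh of intermediate filament proteins under the inner nuclear membrane. Lamin B1 (Lmnb1) and lamin B2 (Lmnb2) stay attached to the membrane through a farnesyl group, whereas lamin A and lamin C, splice forms of Lmna, are found at the rim and in the nuclear interior. Loss of lamin B1, loss of HMGB1 and HMGB2 from the nucleus, and a rise in the lysosomal beta-galactosidase encoded by Glb1 are widely used marks of senescent cells in culture. Lamin B1, HMGB2, Ki-67 (Mki67) and topoisomerase II alpha (Top2a) are also known to be more abundant in dividing cells than in resting ones.

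Among these genes, Hmgb2, Lbr and Tmpo are shown first by the sequence around their transcription start, next to Mki67 and Top2a. They are the ones, among those with a window described, that held the cell cycle homology element given below. Their response to the diet does not set them apart. Hmgb2 fell in all 3 organs as the cell cycle genes did, while Tmpo and Lbr followed other patterns. Windows of 300 bases, 250 before and 50 after a start, were taken from RefSeq on build GRCm38.p6. They covered 8 of the 9 genes (12 windows), and Mki67 and Top2a. No window of Lmnb1 was searched, so its motifs are not described. Capitals mark the letters searched for on both strands, which were the cell cycle homology element as TTTGAA or TTCGAA, the E2F motif as TTTCCCGC, TTTGGCGC, TTTCGCGC or TTTGCCGC, and the CCAAT box as CCAAT. A match on the other strand appears as its reverse complement. No motif's letters contain those of another. Hmgb2 is on the plus strand (chr8:57511593-57511892), and the other windows are on the minus strand: Lbr (chr1:181842352-181842651), Tmpo (chr10:91170501-91170800), Mki67 (chr7:135716330-135716629) and Top2a (chr11:99024140-99024439).
Hmgb2: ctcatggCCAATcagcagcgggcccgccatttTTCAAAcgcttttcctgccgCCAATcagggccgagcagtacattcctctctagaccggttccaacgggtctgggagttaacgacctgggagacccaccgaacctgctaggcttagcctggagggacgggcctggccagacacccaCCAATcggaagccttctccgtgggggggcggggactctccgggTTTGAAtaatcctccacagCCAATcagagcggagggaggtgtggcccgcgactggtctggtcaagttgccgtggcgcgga
Lbr: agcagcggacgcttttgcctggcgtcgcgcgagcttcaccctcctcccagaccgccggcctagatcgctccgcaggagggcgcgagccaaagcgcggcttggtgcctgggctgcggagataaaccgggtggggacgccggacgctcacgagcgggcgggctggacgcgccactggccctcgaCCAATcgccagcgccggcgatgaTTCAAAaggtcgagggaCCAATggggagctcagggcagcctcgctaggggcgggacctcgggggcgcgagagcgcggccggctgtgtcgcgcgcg
Tmpo: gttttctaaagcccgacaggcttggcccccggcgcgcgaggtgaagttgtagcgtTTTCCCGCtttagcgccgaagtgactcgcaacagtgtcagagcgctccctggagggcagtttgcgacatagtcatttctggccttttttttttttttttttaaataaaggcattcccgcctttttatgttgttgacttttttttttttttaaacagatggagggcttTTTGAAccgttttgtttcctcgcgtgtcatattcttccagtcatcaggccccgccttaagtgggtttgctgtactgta
Mki67: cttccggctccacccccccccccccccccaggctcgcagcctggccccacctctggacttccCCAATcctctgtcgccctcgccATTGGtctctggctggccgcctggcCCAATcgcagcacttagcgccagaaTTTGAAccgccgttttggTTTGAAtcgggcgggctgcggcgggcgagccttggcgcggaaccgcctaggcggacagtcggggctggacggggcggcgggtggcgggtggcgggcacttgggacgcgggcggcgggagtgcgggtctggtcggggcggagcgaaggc
Top2a: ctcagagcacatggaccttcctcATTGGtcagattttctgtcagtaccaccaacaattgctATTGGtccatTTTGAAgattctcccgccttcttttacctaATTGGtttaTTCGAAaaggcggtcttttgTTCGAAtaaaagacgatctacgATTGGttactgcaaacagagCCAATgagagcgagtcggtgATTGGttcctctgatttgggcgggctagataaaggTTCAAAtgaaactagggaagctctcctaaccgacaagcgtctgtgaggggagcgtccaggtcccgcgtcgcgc
The Hmgb2 window held 2 cell cycle homology elements and 4 CCAAT boxes, against 2 and 3 in that of Mki67 and 4 and 6 in that of Top2a. The Lbr window held 1 such element and 2 CCAAT boxes, and the Tmpo window shown held 1 element and 1 E2F motif. The other Tmpo window (chr10:91171570-91171869, minus strand), upstream of the one shown, held neither of these and 2 CCAAT boxes. None of the windows of Lmnb2, Lmna, Emd, Hmgb1 and Glb1 held a cell cycle homology element or an E2F motif in these letters. A window of Hmgb1 held 3 CCAAT boxes, as many as that of Mki67. A window each of Lmna and Emd held 1, and those of Lmnb2 and Glb1 held none. Over the 32851 mouse windows searched, 19.2% held the element, 2.26% the E2F motif and 37.4% a CCAAT box. A match describes the letters only.

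Before the results, some libraries call for care. Total counts ran from 16135276 to 23835383. Replicates 1 and 2 of the ketogenic hearts, and those of the ketogenic livers, were nearly alike in their counts (median chi-square per gene of 0.67 and 0.72, where counting alone gives 0.455 and the other 16 pairs gave 1.33 to 5.19). Such a pair was averaged before means and SDs were taken and counts as 1 sample, which leaves n = 2 in ketogenic heart and in ketogenic liver. The tests in these organs use all 6 libraries, and their p-values are too small if a pair came from 1 mouse. The hearts held their defining markers, with cardiomyocyte markers summing to at least 49156 CPM in every library, as did kidneys (10567 CPM of tubule and podocyte markers) and livers (69126 CPM of hepatocyte markers). Chow heart replicate 3 held 12088 CPM of atrial markers, against at most 132.3 CPM in the other hearts, and 155.9 CPM of adipocyte markers, against at most 1.83 CPM. Same-numbered chow hearts and chow kidneys deviated together over genes (correlations of 0.158, 0.152 and 0.167 for replicates 1, 2 and 3), and the labels do not say whether organs came from the same mice. The tests of differences between organs treat them as separate.

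Lmnb1, the gene of lamin B1 (mm9 chromosome 18, 56867467 to 56913079, plus strand), fell in all 3 organs. In heart it had 6.64, 8.14 and 5.53 CPM (counts scaled to a common depth within the organ) in the ketogenic libraries and 22.1, 23.0 and 13.3 CPM in the chow libraries. Every ketogenic heart lay below every chow heart. This was 2.86-fold lower, or -1.52 on the log2 scale with an SE of 0.24, and edgeR's quasi-likelihood test gave an adjusted p of 0.00462 over all genes tested. With the near-identical ketogenic hearts as 1 library it was -1.58 (adjusted p = 0.0228), and without chow heart replicate 3 it was -1.72 (adjusted p = 1.92e-07).

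In kidney Lmnb1 had 7.57, 8.17 and 8.31 CPM on the ketogenic diet and 19.5, 20.9 and 14.7 CPM on chow. The ketogenic kidneys were close to each other, and the groups did not overlap. The log2 fold change was -1.19 (SE 0.15, adjusted p = 0.00254). In liver Lmnb1 had 5.48, 5.68 and 5.12 CPM on the ketogenic diet and 11.5, 15.0 and 12.2 CPM on chow. Here too all ketogenic livers lay below all chow livers, with a log2 fold change of -1.25 (SE 0.14, adjusted p = 2.83e-05). The fall did not differ detectably between organs. The differences were -0.33 for heart minus kidney (SE 0.28), -0.24 for heart minus liver (SE 0.28) and 0.09 for kidney minus liver (SE 0.28), with adjusted p of 0.566, 0.568 and 0.861.

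**Figure D1:**
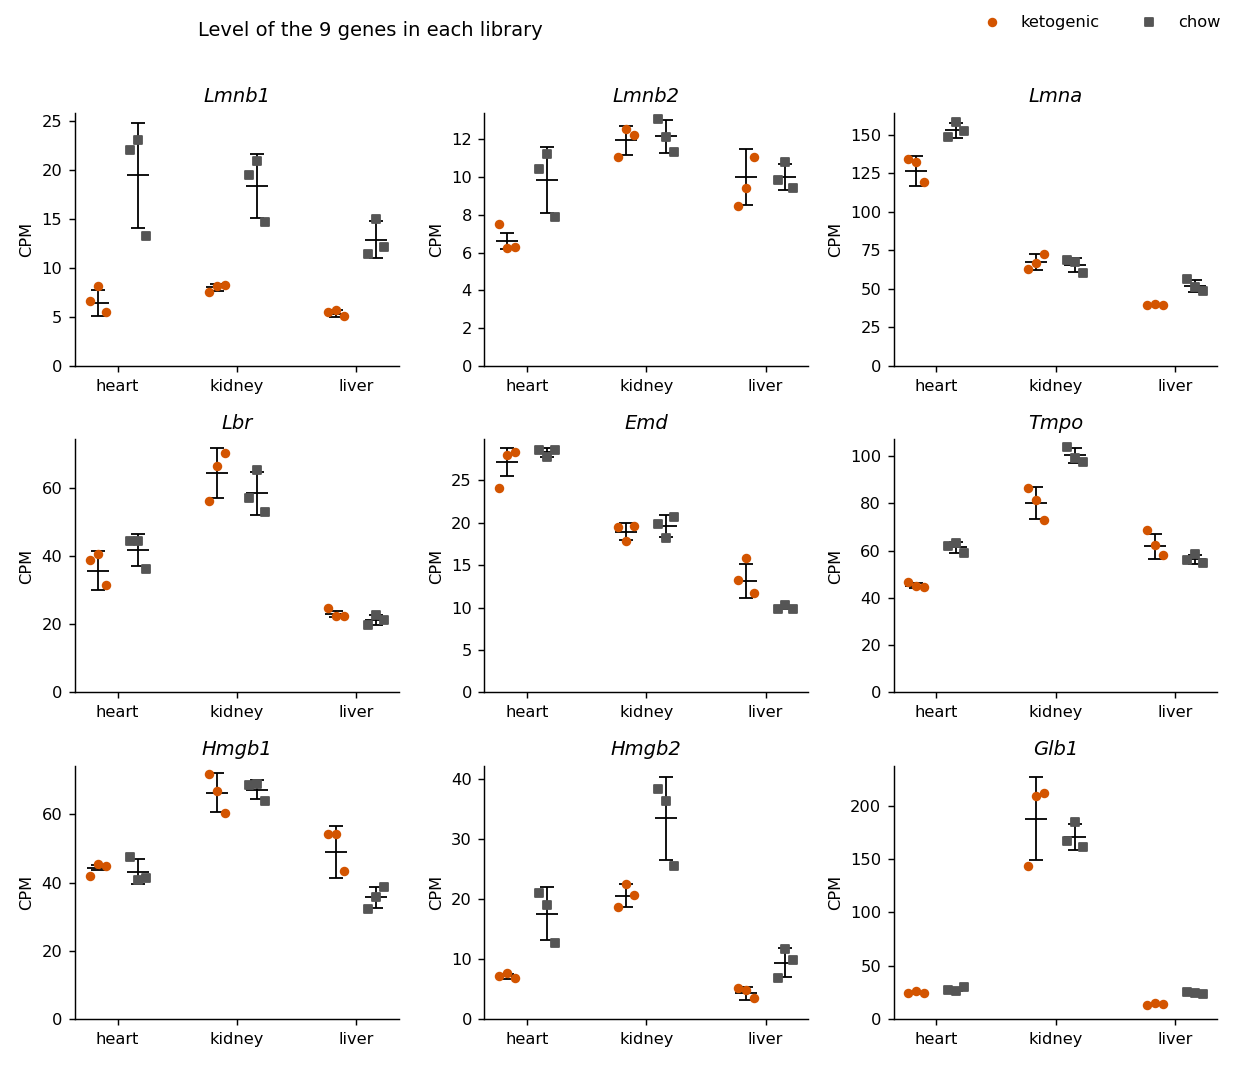
Level of each of the 9 genes in CPM (y axis, from 0) in ketogenic (circles) and chow (squares) libraries of heart, kidney and liver, with the mean and SD (bars; near-identical ketogenic hearts and livers counted as 1). Lmnb1 and Hmgb2 were lower in all ketogenic libraries of every organ, Glb1 was lower in the ketogenic livers, and Hmgb1 and Emd were higher there.

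The other lamins moved less and not in every organ. Lmnb2, the second B-type lamin (mm9 chromosome 10), had 7.53, 6.25 and 6.31 CPM in ketogenic hearts and 10.4, 11.2 and 7.88 CPM in chow hearts. Its log2 fold change in heart was -0.55 (SE 0.17, adjusted p = 0.0412), and the call was lost with the near-identical pair as 1 library (adjusted p = 0.0961) and without any 1 library except chow replicate 3. In kidney and liver it was -0.03 (SE 0.11) and -0.06 (SE 0.13), with adjusted p of 0.907 and 0.745.

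Lmna, the gene of lamins A and C (mm9 chromosome 3, 88285071 to 88307254, minus strand), had 39.8, 40.3 and 39.5 CPM in ketogenic livers and 56.5, 51.2 and 48.9 CPM in chow livers. The groups did not overlap, and the log2 fold change was -0.39 (SE 0.08, adjusted p = 0.00215). In heart Lmna had 134.5, 132.7 and 119.7 CPM on the ketogenic diet and 148.7, 158.3 and 152.3 CPM on chow, a log2 fold change of -0.25 (adjusted p = 0.0317). That call was lost with the near-identical pair as 1 library (adjusted p = 0.0831) and without any 1 library except chow replicate 3. In kidney the log2 fold change of Lmna was 0.04 (SE 0.09, adjusted p = 0.795). The diet effects on Lmna differed between kidney and liver, by 0.47 (SE 0.11, adjusted p = 0.00461). Splice forms cannot be told apart in these gene counts.

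Of the inner membrane proteins, Lbr, the lamin B receptor, which also acts as a sterol reductase, passed in no organ. Its log2 fold change was -0.17 (SE 0.12) in heart, 0.14 (SE 0.11) in kidney and 0.13 (SE 0.09) in liver, with adjusted p of 0.322, 0.443 and 0.270. Its levels overlapped between the diets in all 3 organs. Emd, the X-linked gene of emerin, had 13.2, 15.8 and 11.8 CPM in ketogenic livers and 9.89, 10.3 and 9.88 CPM in chow livers. It rose by 0.44 on the log2 scale (SE 0.12, adjusted p = 0.0119), a call lost without ketogenic liver replicate 2 (adjusted p = 0.0746). In heart and kidney Emd was at -0.08 (SE 0.08, adjusted p = 0.524) and -0.05 (SE 0.09, adjusted p = 0.798).

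Tmpo encodes the lamina-associated LAP2 proteins, of which the beta form sits in the inner membrane and the alpha form in the nucleoplasm (mm9 chromosome 10, 90610316 to 90634327, minus strand). In heart it had 46.8, 45.0 and 44.4 CPM on the ketogenic diet and 61.9, 63.3 and 58.8 CPM on chow. It fell by 0.43 on the log2 scale (SE 0.07, adjusted p = 0.00253), and the libraries of a diet lay close together. In kidney Tmpo had 86.5, 81.3 and 73.0 CPM on the ketogenic diet and 104.0, 99.1 and 97.6 CPM on chow, a log2 fold change of -0.32 (SE 0.08, adjusted p = 0.0414). That call was lost without any 1 library except ketogenic replicate 1 (adjusted p up to 0.165). In liver Tmpo had 68.8, 62.3 and 58.1 CPM on the ketogenic diet and 55.9, 58.5 and 54.6 CPM on chow, and the groups overlapped (log2 fold change 0.16, SE 0.08, adjusted p = 0.129). Without ketogenic liver replicate 3 it passed, at 0.22 (adjusted p = 0.0359). The liver differed from heart (heart minus liver -0.57, adjusted p = 0.000568) and from kidney (kidney minus liver -0.44, adjusted p = 0.00429).

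**Figure D2:**
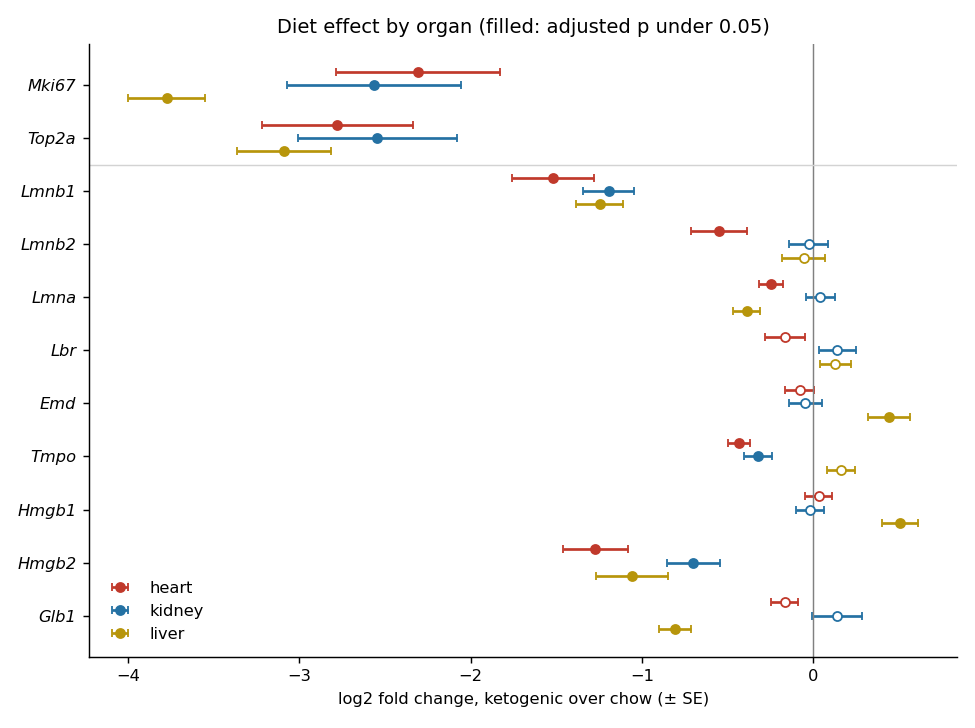
Log2 fold change of ketogenic over chow with its SE (x axis) for Mki67, Top2a and the 9 genes (y axis) in heart, kidney and liver; filled points passed at an adjusted p under 0.05. Lmnb1 lay between -1.19 and -1.52 in the 3 organs, and Mki67 and Top2a lay between -2.31 and -3.78.

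Hmgb1 and Hmgb2 encode high mobility group box proteins, which bend DNA and loosen chromatin, and they did not move together. Hmgb2 (mm9 chromosome 8, 59990640 to 59994796, plus strand) had 7.22, 7.66 and 6.83 CPM in ketogenic hearts and 21.0, 19.1 and 12.6 CPM in chow hearts. Chow replicate 3 was the lowest of the chow hearts and still lay above all ketogenic hearts. The log2 fold change was -1.27 (SE 0.19, adjusted p = 0.00257). In kidney Hmgb2 had 18.6, 22.4 and 20.7 CPM on the ketogenic diet and 38.3, 36.4 and 25.5 CPM on chow, without overlap (log2 fold change -0.70, SE 0.15, adjusted p = 0.0292). This call was lost when any 1 library other than ketogenic replicate 1 or chow replicate 3 was left out. In liver Hmgb2 had 5.23, 4.79 and 3.50 CPM on the ketogenic diet and 6.89, 11.6 and 9.75 CPM on chow, a log2 fold change of -1.06 (SE 0.21, adjusted p = 0.00196).

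Hmgb1, the more abundant of the pair (mm9 chromosome 5), rose in liver. It had 54.3, 54.1 and 43.5 CPM in ketogenic livers and 32.4, 35.9 and 38.6 CPM in chow livers, without overlap, and a log2 fold change of 0.51 (SE 0.10, adjusted p = 0.00213). In heart and kidney it was at 0.03 (SE 0.08, adjusted p = 0.797) and -0.02 (SE 0.08, adjusted p = 0.911). Its liver effect differed from that in kidney (kidney minus liver -0.49, adjusted p = 0.0132) and from that in heart (heart minus liver -0.44, adjusted p = 0.0202). The heart difference was lost with the near-identical pairs summed (adjusted p = 0.109) and without any 1 of ketogenic heart replicate 1, ketogenic liver replicates 1 and 2, chow heart replicate 1 and chow liver replicate 1. Counts of Hmgb1 were not whole in any of the 18 libraries, so part of them came from reads shared with other places in the genome, and its level is uncertain.

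Glb1, whose product is the lysosomal beta-galactosidase behind the senescence stain, fell in liver and passed in neither other organ. In liver it had 13.1, 15.0 and 13.9 CPM on the ketogenic diet and 25.5, 24.7 and 23.4 CPM on chow. The groups lay far apart, with a log2 fold change of -0.81 (SE 0.09, adjusted p = 4.18e-05), which is 1.75-fold lower. In heart Glb1 had 24.5, 25.9 and 24.0 CPM on the ketogenic diet and 27.4, 26.5 and 29.6 CPM on chow (log2 fold change -0.17, SE 0.08, adjusted p = 0.155). In kidney it had 143.2, 208.6 and 211.6 CPM on the ketogenic diet and 166.6, 184.3 and 160.8 CPM on chow, with ketogenic replicate 1 below all others (log2 fold change 0.14, SE 0.15, adjusted p = 0.586). Without that library Glb1 was higher in ketogenic kidneys, at 0.30 (adjusted p = 0.0215). The liver effect differed from that in kidney (kidney minus liver 0.99, adjusted p = 0.000334) and heart (heart minus liver 0.67, adjusted p = 0.00642). Exons of Glb1 (mm9 chromosome 9, 114310237 to 114383495, plus strand) overlap those of Tmppe on the same strand, so reads of the overlap may count for both. The counts of Glb1 were not whole in 2 of the 18 libraries. Cathepsin A (Ctsa) and the sialidase Neu1, which form a complex with this enzyme in lysosomes, are named for that reason. In liver Ctsa was at -0.06 (adjusted p = 0.559) and Neu1 at 0.11 (adjusted p = 0.302) on the log2 scale, and in kidney Ctsa was at 0.06 (adjusted p = 0.761) while Neu1 rose by 0.59 (adjusted p = 0.0125).

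Counted over the 9 genes, 5 fell and 0 rose in heart, where 12.3% of all tested genes fell and 12.5% rose. In kidney 3 fell and 0 rose, against 5.45% and 3.58% of all genes. In liver 4 fell and 2 rose, against 23.3% and 24.3% of all genes. Libraries of the diets did not overlap for 6 of the 9 genes in heart, all lower on the ketogenic diet, where 22.7% of all genes lay below and 22.0% above. The same held for 3 genes in kidney, all lower (16.5% and 15.0% of all genes), and in liver for 4 lower and 2 higher (28.1% and 29.1%). None of the 9 genes rose in heart or kidney by an unadjusted p under 0.05 either (0 of 9 in each), and DESeq2 and limma-voom also called 0. With the near-identical pair as 1 library, 3 fell in heart, Lmnb1, Tmpo and Hmgb2. The count in heart was also 3 without any 1 library except chow replicate 3, and in kidney it was 1, Lmnb1, when ketogenic replicate 2, ketogenic replicate 3, chow replicate 1 or chow replicate 2 was left out. The median log2 fold change of the 9 genes was -0.25 in heart, -0.03 in kidney and -0.06 in liver, against -0.03, 0.0014 and 0.0029 over all tested genes. Diet effects differed for 0 of the 9 genes between heart and kidney (2, Lmnb2 and Lmna, at an unadjusted p under 0.05; 5.45% of all genes at the adjusted threshold). They differed for 4 between heart and liver (32.7% of all genes) and 5 between kidney and liver (29.2%). The first of these counts was 2 without ketogenic heart replicate 1, without ketogenic liver replicate 2, or with the near-identical pairs summed. Between heart and kidney 1 differed without chow heart replicate 3 (Lmnb2) or ketogenic kidney replicate 1 (Glb1).

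Levels of these genes also differed by organ. On a scale that takes exon length and depth into account (RPKM, all 18 libraries scaled together), Lmna stood at 37.4 ± 2.98 in ketogenic hearts (n = 2) and 45.0 ± 1.43 in chow hearts (n = 3), above its 16.3 ± 0.24 in ketogenic livers (n = 2) and 21.7 ± 1.63 in chow livers (n = 3). Its kidney levels were the lowest on chow, at 15.2 ± 1.16 RPKM on the ketogenic diet and 14.6 ± 1.11 RPKM on chow (n = 3 each). On chow, Lmnb1 had 6.69 ± 1.86 RPKM in heart, 6.27 ± 0.91 RPKM in liver and 4.77 ± 0.89 RPKM in kidney. Heart libraries overlapped those of both other organs, while all chow kidneys lay below all chow livers. On the ketogenic diet it had 2.23 ± 0.46 RPKM in heart (n = 2), 2.56 ± 0.17 RPKM in liver (n = 2) and 2.11 ± 0.11 RPKM in kidney (n = 3). Lmnb2 on chow had 4.11 ± 0.29 RPKM in liver, above its 2.85 ± 0.51 in heart and 2.66 ± 0.19 in kidney, which did not differ beyond their spread. Glb1 was highest in kidney, with 59.7 ± 12.4 RPKM on the ketogenic diet and 53.6 ± 4.46 RPKM on chow, and its heart and liver levels were at most 14.4 RPKM on average. Hmgb2 on chow ran from 9.18 ± 1.93 RPKM in kidney through 6.37 ± 1.61 in heart to 4.83 ± 1.21 in liver, and libraries of neighbouring organs in that order overlapped. Emd on chow was highest in heart, at 21.2 ± 0.36 RPKM, with 11.1 ± 0.61 in kidney and 10.6 ± 0.24 in liver. Lbr on chow had 12.1 ± 1.46 RPKM in kidney, 11.5 ± 1.31 in heart and 8.28 ± 0.59 in liver, where kidney and heart overlapped. Tmpo on chow was lowest in heart, at 7.38 ± 0.30 RPKM, with 9.11 ± 0.29 in kidney and 9.59 ± 0.35 in liver. Hmgb1 on chow overlapped between neighbouring organs in its order, with 21.5 ± 1.05 RPKM in kidney, 21.3 ± 1.86 in liver and 18.3 ± 1.62 in heart.

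Mki67 and Top2a, which mark dividing cells, fell further than Lmnb1. Mki67 had 10.6, 11.9 and 6.50 CPM in ketogenic hearts and 58.1, 63.5 and 23.3 CPM in chow hearts, with a log2 fold change of -2.31 (SE 0.48, adjusted p = 0.0273; adjusted p = 0.0907 once the near-identical hearts were joined, and lost without any 1 library except chow replicate 3). In kidney it had 4.50, 13.3 and 18.3 CPM on the ketogenic diet and 79.3, 81.6 and 54.0 CPM on chow (log2 fold change -2.57, SE 0.51, adjusted p = 0.048; lost without any 1 library except ketogenic replicate 1). In liver it had 4.24, 3.68 and 3.29 CPM on the ketogenic diet and 43.9, 67.6 and 42.5 CPM on chow (log2 fold change -3.78, SE 0.22, adjusted p = 6.94e-06). Ketogenic and chow libraries did not overlap in any organ. Top2a gave -2.78, -2.55 and -3.09 in heart, kidney and liver (adjusted p = 0.00944, 0.033 and 8.18e-05). Its call was lost in heart without ketogenic replicate 1 (adjusted p = 0.0519) and in kidney without any 1 library except ketogenic replicate 1.

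The level of Lmnb1 relative to these genes was therefore compared within each library, as the log2 ratio of CPM with a prior count of 2. Lmnb1 to Mki67 stood at -0.67, -0.54 and -0.23 in ketogenic hearts and -1.39, -1.46 and -0.80 in chow hearts. In kidney it stood at 0.73, -0.69 and -1.13 on the ketogenic diet and -2.02, -1.96 and -1.87 on chow, and in liver at 0.37, 0.62 and 0.63 on the ketogenic diet and -1.93, -2.17 and -1.79 on chow. All ketogenic libraries lay above all chow libraries of their organ, so Lmnb1 had fallen by less than Mki67 in each. Averaged over organs, the ketogenic minus chow difference was 1.64 (exact two-sided permutation test within organs, p = 0.0005, the smallest that 2000 arrangements can give; adjusted p = 0.002 over 8 tests). For Lmnb1 to Top2a it was 1.57 (exact permutation p = 0.0005, adjusted p = 0.002). Within 1 organ the exact test cannot go below 0.1. It gave 0.1 in kidney and liver for Mki67 (differences 1.59 and 2.52) and in all 3 organs for Top2a (1.23, 1.53 and 1.96 in heart, kidney and liver), and 0.2 in heart for Mki67 (0.80), with each near-identical pair averaged. Without ketogenic kidney replicate 1, the kidney differences were 1.04 for Mki67 and 1.01 for Top2a.

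**Figure D3:**
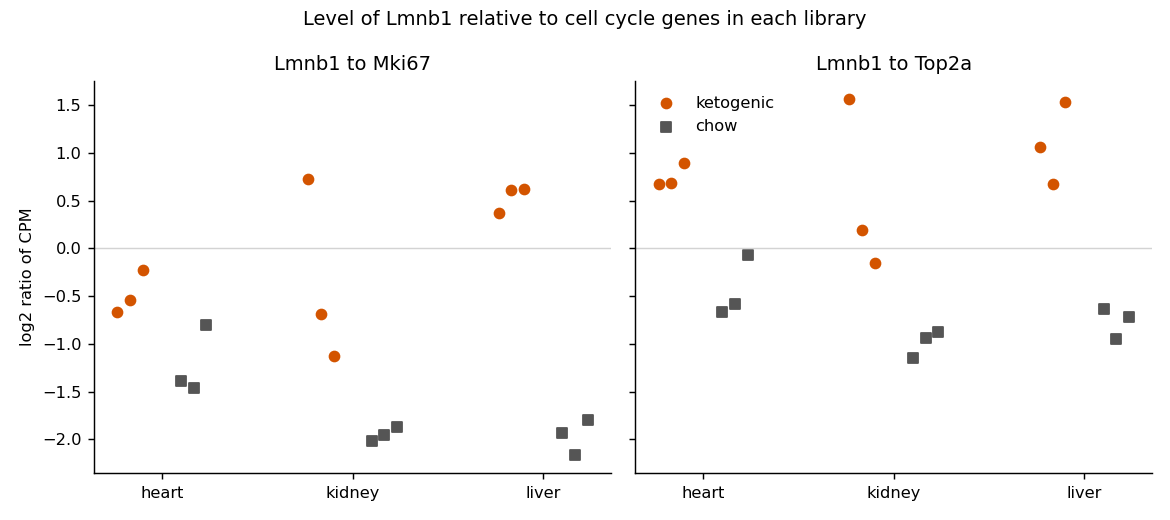
Log2 ratio of the CPM of Lmnb1 to that of Mki67 (left) and Top2a (right) in each ketogenic (circles) and chow (squares) library by organ. Every ketogenic library lay above the chow libraries of its organ, from -1.13 to 0.73 against -2.02 to -1.87 for Mki67 in kidney.

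Whether Lmnb1 followed the 2 cell cycle genes was asked within groups, since organs and diets form separate clusters that would set a pooled correlation. Each value was taken as its deviation from the mean of its organ and diet, over 16 samples with the near-identical pairs averaged. Lmnb1 and Mki67 deviated with the same sign in 16 of 16 samples (Pearson's r = 0.77, exact permutation p = 0.000386 within groups; Spearman's rho = 0.85, exact permutation p = 0.000579). Adjusted over 18 relations, these were 0.00347 and 0.00608. For Top2a the sign was also shared in 16 of 16 samples (r = 0.77, exact permutation p = 0.000965; rho = 0.79, exact permutation p = 0.00135; adjusted p = 0.00347 and 0.00608). Without the 2 samples farthest from the median, r was 0.92 for Mki67 (exact permutation p = 0.00347, n = 14) and 0.86 for Top2a (exact permutation p = 0.00868). Adjusted over the 18 relations, both were at 0.0521 and so missed the threshold. In groups with 2 samples both deviate by the same amount, so those carry 1 comparison each. Deviations within a group sum to 0, so the 16 signs are not independent. Hmgb2 shared its sign with each cell cycle gene in 15 of 16 samples, and Lmnb2, Lbr and Tmpo did in 14. Lmna did in 12, Glb1 in 11, Hmgb1 in 10 and Emd in 8. Tmpo had r of only -0.05 with Mki67 and 0.06 with Top2a, so a shared sign alone says little. With same-numbered chow hearts and kidneys permuted together, an alternative chosen after seeing the data, the exact permutation p was 0.00231 for Mki67 and 0.00347 for Top2a (adjusted p = 0.0125 each). Replicate 3 was the lowest in Lmnb1, Mki67 and Top2a among both the chow hearts and the chow kidneys.

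**Figure D4:**
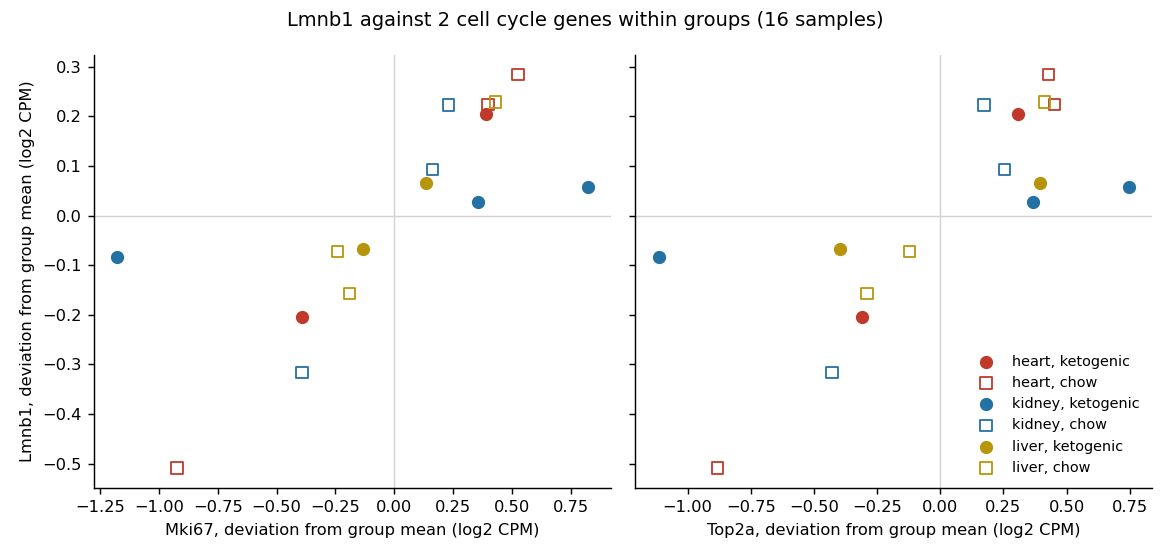
Deviation of Lmnb1 from its group mean in log2 CPM (y axis) against that of Mki67 (left) and Top2a (right) in log2 CPM (x axis) for 16 samples; filled circles are ketogenic, open squares chow. Both deviations have the same sign at all 16 points, and ketogenic kidney replicate 1 lies far left at -1.18 for Mki67 with Lmnb1 at -0.08.

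The samples at the ends show the size of this relation. Chow heart replicate 3, the library with atrial markers, was lowest of the chow hearts in Lmnb1, Mki67 and Top2a, at -0.51, -0.92 and -0.88 from its group's mean in log2 CPM. Ketogenic kidney replicate 1 deviated by -1.18 in Mki67 and by -1.11 in Top2a, while its Lmnb1 deviated by -0.08. Of the other genes, Lbr went with Mki67 (r = 0.88, exact permutation p = 0.000772, rho = 0.87, exact permutation p = 0.00116) and Top2a (r = 0.86, exact permutation p = 0.000965, rho = 0.80, exact permutation p = 0.000965), although its level did not pass between the diets. Hmgb2 went with Top2a (r = 0.76, exact permutation p = 0.000965, rho = 0.74, exact permutation p = 0.00251) and Mki67 (r = 0.67, exact permutation p = 0.00309, rho = 0.65, exact permutation p = 0.00868). Adjusted over the 18 relations, the Pearson p-values of Lbr and Hmgb2 were 0.00347 to 0.00926. Without the 2 farthest samples, Lbr gave r = 0.86 with Mki67 (exact permutation p = 0.0243) and 0.78 with Top2a (exact permutation p = 0.026), and Hmgb2 gave 0.83 with Top2a (exact permutation p = 0.00868). None of these passed the adjustment then (adjusted p = 0.0521 to 0.0938). Hmgb2 with Mki67 gave 0.63 (exact permutation p = 0.0503, adjusted p = 0.151), an r little changed from 0.67 but from fewer samples and permutations. Lmnb2 went with Mki67 (r = 0.72, exact permutation p = 0.00868, adjusted p = 0.0223, rho = 0.73, exact permutation p = 0.00521), but not without the 2 farthest samples (r = 0.46, exact permutation p = 0.158), so this relation rests on them. Lmnb2 with Top2a did not pass (r = 0.62, exact permutation p = 0.0519, adjusted p = 0.104), nor did the relations of Lmna, Emd, Tmpo, Hmgb1 and Glb1.

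By a fixed rule, the genes most like Lmnb1 were ranked by Pearson's r over the 18 libraries, after centring log2 CPM on each organ, among 9899 genes tested in all organs with a mean log2 CPM of at least 2. Predicted genes, known by the form of their symbols, were left out. The 18 points share the diet contrast, so r describes a pattern and has no p. The first 10 were Kif11 (a mitotic kinesin, 0.98), H2afx (histone H2A.X, 0.98), Anln (anillin of the cleavage furrow, 0.97), Hist1h1b, Hist1h2bn, Cd93 (an endothelial receptor), Hist1h3c, Top2a, Hist1h3a and Slc7a8 (an amino acid transporter, 0.96). Genes of the Hist1 cluster share reads with near-identical copies and are uncertain. Hmgb2 stood at rank 13 (0.96) and Mki67 at rank 31 (0.94). Of the other genes described here Lmna stood at rank 635 (0.68), Lmnb2 at 743 (0.66), Tmpo at 873 (0.62) and Glb1 at 1431 (0.51). Lbr stood at 3589 (0.16), Emd at 6799 (-0.30) and Hmgb1 at 7648 (-0.41). Of 19 proliferation genes that were ranked, 11 were among the first 100.

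Around these genes, 4 wider lists showed how far the change reached. Of 41 proliferation genes, Mki67 and Top2a among them, 35 fell in heart, 36 in kidney and 37 of 40 tested in liver, and 0 rose (medians -2.30, -1.93 and -2.91). Of all tested genes, 12.3%, 5.45% and 23.3% fell and 12.5%, 3.58% and 24.3% rose in heart, kidney and liver. In heart Tyms (-1.81), Anln (-2.51), Nusap1 (-2.54) and Ncapg (-3.64) had the smallest adjusted p, in kidney Bub1 (-3.05), Rrm2 (-1.93), Mcm5 (-1.66) and Mcm3 (-1.31), and in liver Tpx2 (-4.15), Plk1 (-4.45), Ccnb1 (-4.79) and Kif20a (-3.93). Without chow kidney replicate 1, 21 fell in kidney, and without ketogenic replicate 2 or chow replicate 2 it was 24 each. By limma-voom 22 fell in heart. Cenpf, a kinetochore gene named after its values were seen, went the other way in heart, with 113.0, 122.0 and 53.8 CPM on the ketogenic diet and 47.5, 47.4 and 33.5 CPM on chow. On the log2 scale Cenpf stood 1.17 higher (SE 0.35) but missed the threshold (adjusted p = 0.0693). It was the only one of the list higher in heart by an unadjusted p under 0.05, and it passed by DESeq2 (adjusted p = 0.0136), in 1 model of all libraries (adjusted p = 0.00993) and without ketogenic heart replicate 3 (adjusted p = 0.00468). In kidney and liver Cenpf fell, by 2.93 and 4.59, and no gene of the list was higher there by an unadjusted p under 0.05 or by DESeq2 or limma-voom.

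Among 29 other nuclear envelope genes tested in each organ, 4 rose and 1 fell in heart, where 12.5% of all genes rose and 12.3% fell. They included Tor1aip1, the torsin activator LAP1, at 0.44 and the membrane protein gene Tmem201 at 0.44 (adjusted p = 0.00236 and 0.00261). The prenyl protease gene Rce1, which trims farnesylated proteins such as B-type lamins, fell by 0.48 (adjusted p = 0.0228). In kidney, where 3.58% of all genes rose and 5.45% fell, Tor1aip1 rose by 0.28 (adjusted p = 0.0433), and 2 of the 29 fell, the nucleoporin gene Tmem48 at -0.41 and nurim (Nrm) at -1.22 (adjusted p = 0.0397 and 0.047). In liver 5 rose and 10 fell, against 24.3% and 23.3% of all genes. Syne1, whose protein nesprin-1 links the nucleus to actin, fell by 1.24 (adjusted p = 1.76e-05), whereas the ATPase gene Tor1a rose by 0.89 (adjusted p = 1.95e-05) and Fnta, a subunit of the enzyme that farnesylates lamins, by 0.63 (adjusted p = 0.000289). The list's medians were 0.07, 0.04 and -0.13 in heart, kidney and liver. Its counts moved with single libraries. In heart 2 rose without ketogenic replicate 1, ketogenic replicate 2 or chow replicate 1, and 0 fell without any 1 library except chow replicate 3, without which 3 fell. In kidney 0 rose without any 1 library except ketogenic replicate 1, and 3 rose and 3 fell without that one; 0 or 1 fell without any other. In liver 3 rose without ketogenic replicate 1, ketogenic replicate 3 or chow replicate 3, and 6 fell without ketogenic replicate 1.

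Among 31 genes of other HMG proteins, histone variants and heterochromatin, more fell than rose in each organ. In heart 8 of 30 tested fell and 1 rose (12.3% and 12.5% of all genes). The maintenance methylation factor Uhrf1 fell by 2.14 (adjusted p = 0.00611), the H3K27 methyltransferase gene Ezh2 by 0.80 (adjusted p = 0.00215) and H2afz by 0.60 (adjusted p = 0.00174), while Hmga1 rose by 0.54 (adjusted p = 0.00137). In kidney 10 of 30 fell and 0 rose (5.45% and 3.58% of all genes; 2 higher by an unadjusted p under 0.05 and 0 by DESeq2 and limma-voom), with Ezh2 at -0.88, H2afx at -1.08, Uhrf1 at -2.09 and the histone chaperone Asf1b at -1.98 (adjusted p = 0.0021, 0.00318, 0.00474 and 0.00474). In liver 14 of 29 fell and 2 rose (23.3% and 24.3% of all genes), with H2afx at -1.12, Hmgn5 at -1.04, the macroH2A gene H2afy at -0.54 and Dnmt1 at -0.96 (adjusted p = 1.24e-05, 4.5e-05, 0.00016 and 0.000164). The medians were -0.14, -0.19 and -0.25. In kidney 5 fell without chow replicate 1, and 2 rose without ketogenic replicate 1. In liver 9 fell without ketogenic replicate 2, and 0 rose without ketogenic replicate 1 and 1 without ketogenic replicate 2 or 3.

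The 33 genes of lysosomal enzymes and membrane proteins, beside Glb1, went both ways. In heart 7 rose and 9 fell (12.5% and 12.3% of all genes), with Psap (prosaposin) at 0.67 and Scarb2 at 0.53, and the glucuronidase gene Gusb at -0.71 (adjusted p = 0.0019, 0.00171 and 0.00269). In kidney 3 rose and 0 fell (3.58% and 5.45% of all genes; 1 lower by an unadjusted p under 0.05 and 0 by DESeq2 and limma-voom), Neu1 (0.59), the fucosidase gene Fuca1 (0.39) and Psap (0.53), with adjusted p of 0.0125, 0.0256 and 0.0388. In liver 7 rose and 12 fell (24.3% and 23.3% of all genes), among them Gm2a, the ganglioside activator, at -1.84, Arsb at -0.79, Galns at -1.42 and Gusb at -0.93 (adjusted p = 1.11e-07, 1.49e-05, 1.52e-05 and 1.86e-05). The medians were -0.11, 0.08 and -0.06. The kidney count hung on single libraries, since 9 rose and 1 fell without ketogenic replicate 1, and 0 rose without chow replicate 1 or 3 and 1 without any of the others; DESeq2 called 6. In heart 4 rose without ketogenic replicate 1 or 2, and 3 to 5 fell without any 1 ketogenic library or chow replicate 1. With the near-identical hearts as 1 library, 4 rose and 3 fell.

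**Figure D5:**
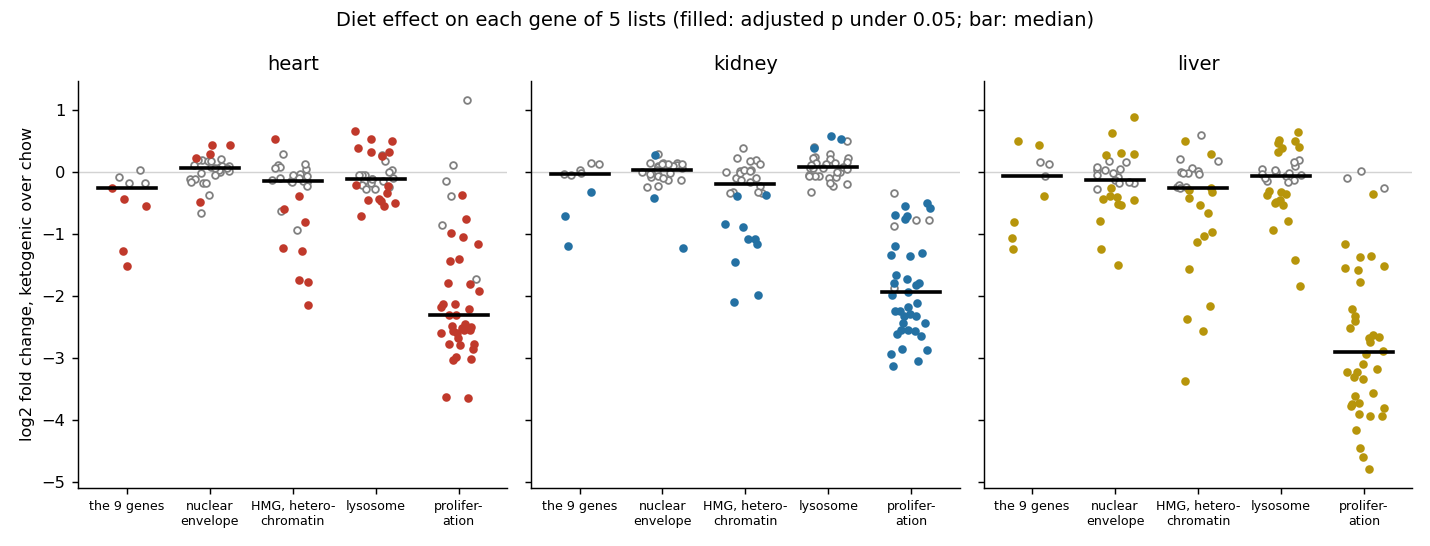
Log2 fold change of ketogenic over chow (y axis) of each tested gene in 5 lists (x axis) in heart, kidney and liver, filled where the adjusted p was under 0.05, with the median as a bar. The proliferation list lay lowest in each organ, with medians of -2.30, -1.93 and -2.91, and the lists of the envelope and the lysosome lay near 0.

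Markers of other cells moved with the diet in the same libraries. For the counts of markers below, the shares of all tested genes that fell were 12.3% in heart, 5.45% in kidney and 23.3% in liver. The shares that rose were 12.5%, 3.58% and 24.3%. Summed over a list, erythroid markers stood at 570.4 to 1323 CPM in ketogenic hearts and 2329 to 3344 CPM in chow hearts (4 of 5 fell), macrophage markers at 258.2 to 259.2 and 431.9 to 481.3 CPM (6 of 6 fell) and fibroblast markers at 1105 to 1179 and 1836 to 2928 CPM (3 of 5 fell). Macrophage sums overlapped in kidney, at 113.9 to 139.6 CPM on the ketogenic diet and 132.0 to 142.0 CPM on chow (0 of 6 passed). In liver they also overlapped, at 207.1 to 366.6 and 221.6 to 256.3 CPM, where 0 of 6 fell and Lyz2 rose (adjusted p = 0.0377). Erythroid sums overlapped in both of these organs, with 0 of 5 passing in kidney and only Slc4a1 falling in liver (1 of 5). In kidney, fibroblast markers stood at 301.0 to 426.8 CPM on the ketogenic diet and 900.5 to 1423 CPM on chow (2 of 5 fell, the collagen genes Col1a1 and Col1a2). In liver they stood at 183.5 to 213.8 CPM on the ketogenic diet and 226.9 to 248.3 CPM on chow. There Col1a1 and Col1a2 fell (2 of 5) and Dcn rose (1 of 5). In liver, hepatocyte markers stood at 69126 to 73933 CPM on the ketogenic diet and 111175 to 120364 CPM on chow (4 of 5 fell), while of the adipocyte list Cfd and Cidec rose, to 56.3 to 116.3 CPM and 25.7 to 31.0 CPM on the ketogenic diet, against at most 0.0839 and 0.680 CPM on chow. Its other markers, Adipoq, Plin1 and Lep, were at 0 to 0.105 CPM in all livers. In kidney the adipocyte sum was 264.2, 17.98 and 241.7 CPM on the ketogenic diet and 4.86, 81.9 and 61.0 CPM on chow, and 0 of 5 passed. Endothelial marker sums overlapped between the diets in all 3 organs, but single genes passed. Of the 5, 1 fell in heart (Pecam1, adjusted p = 0.0124) and 1 in kidney (Cdh5, adjusted p = 0.0145). In liver 1 fell (Cdh5, adjusted p = 0.000337) and 2 rose (Kdr and Tek, adjusted p = 0.0418 and 0.0449). Lep was at 0 in every liver, and no other marker of the lists named was at 0 in every library of the organ it is given for. Their part in the levels of the 9 genes was not tested. In whole organs, fewer cells of a type and less RNA per cell cannot be told apart.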

How the data were processed

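Stranded mRNA libraries were made from 18 samples of total RNA, per the labels' protocols. Reads were aligned with HISAT2 2.1.0, per the submitters' processing notes, and read pairs were counted over exons of the UCSC mm9 annotation with featureCounts 1.5.0-p1 with a strand setting, per the file headers. The deposited values are estimated counts, since reads at several places or over several genes were counted as fractions, per the file headers. They were rounded to whole numbers, which changed a library's total by at most 0.00441%.

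For each organ, genes kept by filterByExpr were scaled by TMM and tested between diets with edgeR 4.0.16 (quasi-likelihood test, robust, in R 4.3.3), with Benjamini-Hochberg adjustment over all genes of the organ and a threshold of 0.05. Differences between organs were contrasts in 1 edgeR model of all 18 libraries. Log2 fold changes are ketogenic over chow. Alternatives were DESeq2 1.42.0, limma 3.58.1 (voom), other scalings and filters, 1 model of all libraries, a replicate block, the near-identical pairs summed and each library left out. A permutation that keeps same-numbered chow hearts and kidneys together was added after seeing the data. The steps were tested on simulated data.

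The genes, lists and tests were chosen with earlier results of these data known. The text names the 9 genes, Mki67, Top2a, up to 4 genes per list and organ with the smallest adjusted p, and the 10 genes most like Lmnb1; Ctsa was added, and 1 gene that the rule names is not reported here. Same-numbered libraries of both diets did not deviate together (correlations of -0.0566 to 0.15), so the numbers were not taken to pair the diets. RNA of a RIN over 4 was used, per the labels' protocols. For heart and liver the p-values measure the spread between libraries that may be partly technical. Gene positions come from the deposited annotation columns (mm9, first to last exon); the promoter windows are on GRCm38.p6, and the builds were not mixed. Of 30 nuclear envelope symbols, 29 matched the files, older symbols included.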

Additional observations from a re-analysis of the deposited data

Results flagged for a closer look

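The diet effect differed between organs for 5 of the 9 genes by a test of the difference itself (edgeR's quasi-likelihood test, log2 scale, adjusted over all genes). Tmpo differed by -0.57 for heart minus liver (adjusted p = 0.000568) and by -0.44 for kidney minus liver (adjusted p = 0.00429). Hmgb1 differed by -0.44 for heart minus liver (adjusted p = 0.0202) and by -0.49 for kidney minus liver (adjusted p = 0.0132). Glb1 differed by 0.67 for heart minus liver (adjusted p = 0.00642) and by 0.99 for kidney minus liver (adjusted p = 0.000334). Emd differed by -0.49 for heart minus liver (adjusted p = 0.0131) and by -0.44 for kidney minus liver (adjusted p = 0.0269), and both calls were lost without ketogenic liver replicate 2 (adjusted p = 0.0677 and 0.104). The first was also lost without ketogenic heart replicate 1 and the second without any 1 of 5 other libraries. Lmna differed by 0.47 for kidney minus liver (adjusted p = 0.00461). Each of these differences set the liver apart from another organ.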

How the results depend on the processing

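Lmnb1 passed in each organ under every alternative run, with log2 fold changes of -1.72 to -1.36 in heart, -1.33 to -1.09 in kidney and -1.33 to -1.12 in liver as each library was left out (adjusted p up to 0.0332, 0.0213 and 0.000205). Counts of the 9 genes were less stable. As each library was left out, 3 to 5 fell in heart and 1 to 3 in kidney, 0 to 1 rose in kidney and 1 to 3 in liver, and effects differed for 0 to 1 between heart and kidney and 2 to 5 between heart and liver. With the near-identical pairs summed, 3 fell in heart and 2 differed between heart and liver. With a replicate block, 1 fell in kidney, and Lmnb1 was at -1.51 in heart, -1.18 in kidney and -1.24 in liver; the numbers do not pair the diets. Leaving out each library in turn gave Lmnb1 a within-group r of 0.655 to 0.964 with Mki67 and 0.659 to 0.935 with Top2a. By the exact permutation test, the adjusted p was then at most 0.0104 for both. The within-group correlation of Lmnb1 with Mki67 was 0.92 without the 2 farthest samples (adjusted p = 0.0521) and 0.99 without kidney (adjusted p = 0.05). The within-group correlation of Lmnb1 with Top2a was 0.86 (adjusted p = 0.0521) and 0.96 (adjusted p = 0.05), all from fewer samples and permutations. That of Tmpo with Mki67 turned to 0.72 without kidney, against -0.05; the cause was not tested. Total-count scaling moved the median of all genes in heart to -0.16, and Glb1 then passed in heart at -0.30 (adjusted p = 0.0344). Without a filter on low counts Mki67 missed the threshold in heart (adjusted p = 0.0557) and kidney (adjusted p = 0.0752). With 3 libraries a group and low counts of Lmnb1 and Hmgb2, small differences may not be detectable.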
